A study of Mus musculus with 12 samples.

Results

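The genes described here are 52 genes of mitosis: cyclins and kinases that start cell division, the proteins of centromeres and kinetochores, spindle motors, condensin, and the enzymes that separate chromosomes and cells. They were taken as the genes of a fixed list of symbols, and all 52 were found among the 31099 genes of the deposited count table. RNA was sequenced in bulk from cells sorted by flow cytometry out of 2 depots: the fat that surrounds the thoracic aorta, called perivascular, and the white fat of the groin, called inguinal. The pups were wild-type CD-1 mice at postnatal day 3 and of both sexes. There were 4 groups of 3 libraries: perivascular preadipocytes, perivascular progenitors, inguinal preadipocytes sorted as ICAM1+ and inguinal progenitors sorted as DPP4+. Each library held cells of pooled pups, and libraries with the same replicate number came from the same pools. No label used here gives the surface markers of the perivascular sorts, so a difference between depots cannot be told apart from a difference between sort gates. The series set the 2 depots against each other at each stage, and the 2 stages against each other within each depot.

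At entry into mitosis the kinase CDK1, bound to cyclin B, drives chromosome condensation and spindle assembly. Kinetochores, built on centromeres marked by the histone variant CENP-A, attach chromosomes to microtubules, and a checkpoint holds the anaphase-promoting complex inactive until all are attached. That ubiquitin ligase then has securin and cyclin B destroyed, separase opens cohesin, and the cell divides. RNA of these genes accumulates in G2 and mitosis and is low in resting cells. In growing fat, progenitors and preadipocytes divide before they differentiate, while lipid-filled adipocytes have left the cell cycle.

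Library totals ran from 15614628 to 25674461 counts, and TMM factors, which scale libraries for composition, from 0.744 to 1.22. Unless stated otherwise, a level is a TMM-scaled CPM value, the gene's count brought to a common library total. Of 31099 genes, 18855 passed a filter on low counts, and all 52 mitosis genes were among them. Their raw counts ran from 15 to 5436 a library, with 4 of 624 values under 30. Dpp4 averaged 89.4 CPM in perivascular progenitors and 1509.9 CPM in the DPP4+ sort, and Icam1 averaged 39.5 CPM in perivascular preadipocytes and 497 CPM in the ICAM1+ sort. Pdgfra, a marker of adipose stromal cells, was at 174, 589.5, 623 and 493 CPM in perivascular preadipocytes, perivascular progenitors, ICAM1+ preadipocytes and DPP4+ progenitors.

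Many genes of this kind share 2 short promoter elements: the cell cycle homology region TTTGAA, read by the MuvB complexes, and the CCAAT box, read by NF-Y. The promoters of the 5 genes below are shown because they had the largest differences between perivascular and DPP4+ progenitors among genes with either motif in the window. Each is a RefSeq window of 300 bases in build GRCm38.p6, from 250 bases before the annotated gene start to 50 after it, written 5′ to 3′ on the gene's strand. Capitals mark TTTGAA or its reverse complement TTCAAA, and CCAAT or its reverse complement ATTGG. The windows are Ccnb1 (chr13:100786437-100786736, minus strand), Bub1b (chr2:118597961-118598260, plus strand), Spc25 (chr2:69206164-69206463, minus strand), Top2a (chr11:99024140-99024439, minus strand) and Cenph (chr13:100775850-100776149, minus strand).
Ccnb1: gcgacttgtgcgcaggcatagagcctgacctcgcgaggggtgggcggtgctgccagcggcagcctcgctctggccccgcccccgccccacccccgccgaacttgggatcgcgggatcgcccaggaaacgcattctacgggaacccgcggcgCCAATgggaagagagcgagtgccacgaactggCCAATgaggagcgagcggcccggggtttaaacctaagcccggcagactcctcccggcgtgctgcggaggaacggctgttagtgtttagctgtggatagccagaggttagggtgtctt
Bub1b: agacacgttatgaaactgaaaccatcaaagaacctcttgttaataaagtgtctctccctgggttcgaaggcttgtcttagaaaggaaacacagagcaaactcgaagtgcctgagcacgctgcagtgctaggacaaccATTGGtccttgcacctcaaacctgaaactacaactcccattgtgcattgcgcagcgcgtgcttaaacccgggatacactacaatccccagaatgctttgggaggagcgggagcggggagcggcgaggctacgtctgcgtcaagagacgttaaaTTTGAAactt
Spc25: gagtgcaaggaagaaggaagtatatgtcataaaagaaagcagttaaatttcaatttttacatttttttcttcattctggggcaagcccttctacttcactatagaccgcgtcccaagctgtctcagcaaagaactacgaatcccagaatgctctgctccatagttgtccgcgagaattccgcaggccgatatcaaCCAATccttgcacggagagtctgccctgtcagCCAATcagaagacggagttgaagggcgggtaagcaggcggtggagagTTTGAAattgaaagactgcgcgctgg
Top2a: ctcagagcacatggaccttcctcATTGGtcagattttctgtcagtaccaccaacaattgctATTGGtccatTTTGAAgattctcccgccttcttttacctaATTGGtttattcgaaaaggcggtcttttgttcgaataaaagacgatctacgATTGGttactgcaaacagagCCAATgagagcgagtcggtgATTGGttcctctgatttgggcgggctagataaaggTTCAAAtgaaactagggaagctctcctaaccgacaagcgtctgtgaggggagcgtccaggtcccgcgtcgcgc
Cenph: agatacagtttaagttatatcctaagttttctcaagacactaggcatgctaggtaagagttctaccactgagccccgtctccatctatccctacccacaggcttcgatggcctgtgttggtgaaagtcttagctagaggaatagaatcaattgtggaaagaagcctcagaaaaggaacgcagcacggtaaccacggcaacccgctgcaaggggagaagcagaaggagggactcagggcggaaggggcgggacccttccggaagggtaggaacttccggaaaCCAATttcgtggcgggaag

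Ccnb1 held 2 CCAAT boxes, 99 and 67 bases before the start, and no TTTGAA in this window. Spc25 held CCAAT boxes 55 and 23 bases before the start and TTTGAA 24 bases after it, and Top2a held 6 boxes and 2 copies of TTTGAA. Of the 52 genes, 43 had a RefSeq window and 4 of these had several, 48 windows in all. By gene, 31 of the 43 held TTTGAA and 33 held CCAAT. Windows of the same gene can overlap, while the intervals below treat the 48 windows as independent. TTTGAA was found on either strand in 34 of the 48 (70.8%, exact binomial 95% interval 55.9 to 83.0%), against 17.9% of all 32851 windows of that length. CCAAT was found in 38 of 48 (79.2%, 65.0 to 89.5%), against 37.4% of all windows, and both motifs in 29 (60.4%), against 6.95%. In the shorter windows of the 200 bases before the start, the share of the 48 was 39.6% for TTTGAA, against 12.5% of all windows, 72.9% for CCAAT, against 29.3%, and 35.4% for both motifs, against 3.69%. A match gives only letters in a window, and the 2 motifs share no letters by overlap in the windows shown. Genes with TTTGAA in a window had a median log2 fold change of 2.40 between the progenitors, against 2.29 for those without, and the figures for CCAAT were 2.41 and 2.32.

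The mitosis genes were highest in perivascular preadipocytes, followed by perivascular progenitors, ICAM1+ preadipocytes and DPP4+ progenitors. Their summed level was 3260.3, 4453 and 4659.7 CPM in perivascular preadipocytes, 1889.8, 2023 and 2002 CPM in perivascular progenitors, 1336, 1306 and 1201 CPM in ICAM1+ preadipocytes, and 449.8, 523 and 429 CPM in DPP4+ progenitors. No library of a group reached into the range of another. Perivascular preadipocyte library 1 was the lowest of its group in the sum and for 42 of the 52 genes. The mean sum was 4124 ± 755 CPM in perivascular preadipocytes, 1972 ± 71.8 CPM in perivascular progenitors, 1281 ± 71.2 CPM in ICAM1+ preadipocytes and 467 ± 49.3 CPM in DPP4+ progenitors (SD, n = 3 each), an 8.83-fold span. The genes took 0.491% of the counts in perivascular preadipocytes and 0.0367% in DPP4+ progenitors. In bulk RNA, more cells in mitosis and more mitotic RNA per cell cannot be told apart.

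All 52 genes had their 4 group means in that order, as did 13.4% of all tested genes. For 42 the 12 libraries followed it without any overlap, against 1.77% of all genes. The 10 others were Ccna2, Foxm1, Mki67, Cenpi, Kif4, Anln, Ect2, Smc4, Espl1 and Pttg1. For 44 of the 52, every perivascular progenitor library lay above every ICAM1+ preadipocyte library (20.3% of all genes).

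**Figure D1:**
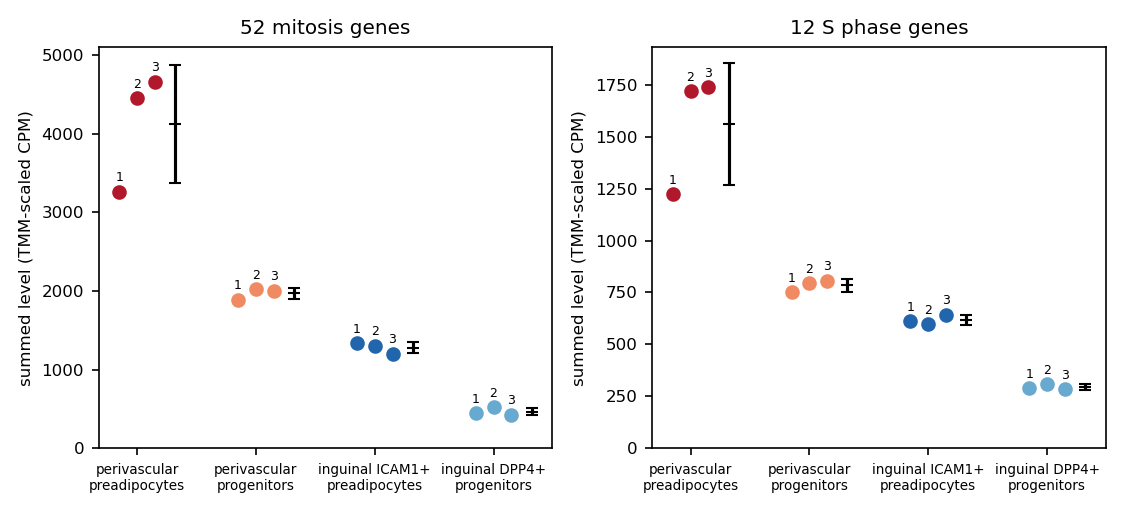
Summed level of the 52 mitosis genes (left) and of 12 S phase genes (right) in TMM-scaled CPM for each library, numbered by replicate, with the mean and SD of 3 libraries as a bar beside the points. Perivascular preadipocyte libraries of the mitosis genes lie between 3260.3 and 4659.7 CPM, and DPP4+ progenitor libraries between 429 and 523 CPM.

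The tests repeated this direction in each comparison. Between the progenitors, 52 of 52 were higher in perivascular cells (median log2 fold change 2.32, against 0.05 over all genes), where 24.9% of all tested genes were called, 13.0% higher and 11.8% lower. Between the preadipocytes, 52 of 52 were again higher in perivascular cells (median 1.55, against 0.04), with 44.9% of all genes called, 23.5% higher and 21.4% lower. Within perivascular fat, 48 were higher in preadipocytes than in progenitors (median 0.95, against -0.05), with 32.9% of all genes called, 16.8% higher and 16.1% lower. Within inguinal fat, 51 were higher in ICAM1+ preadipocytes than in DPP4+ progenitors (median 1.65, against 0.02), with 17.9% of all genes called, 9.34% higher and 8.61% lower. Not one of the 52 had a negative fold change in any of the 4. Changes of at least 2-fold were found for 50, 49, 23 and 50 genes in these 4 comparisons. The libraries did not overlap for 52, 52, 49 and 52 genes, against 22.7%, 29.5%, 20.1% and 22.9% of all genes. Each group serves in 2 of the 4 comparisons, which therefore share libraries.

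Levels of markers of other cell types also differed between the groups, and not all followed the order of the mitosis genes. The 10 mesothelial markers summed to 132 to 246 CPM in perivascular progenitors and to 37.9 to 43.3 CPM in DPP4+ progenitors. Between the preadipocytes these sums overlapped, at 32.7 to 76.1 CPM in perivascular and 34.5 to 52.3 CPM in ICAM1+ cells. The single markers were not alike there. In perivascular cells 6 of the 10 were called higher and 4 lower, with log2 fold changes from -4.73 to 6.01. Of all tested genes 23.5% were called higher and 21.4% lower. The 10 endothelial markers summed to 241 to 379 CPM in perivascular progenitors and to 794 to 1021 CPM in DPP4+ progenitors. In preadipocytes they summed to 87.2 to 132 CPM in perivascular and 187 to 228 CPM in ICAM1+ cells. DPP4+ library 2 stood out with 231 CPM of haematopoietic and 276 CPM of mast cell markers, against 59.3 to 72.9 and 63.5 to 73.6 CPM in the other DPP4+ libraries. The 7 mast cell markers summed to 17.9 to 24.2 CPM in perivascular preadipocytes, 9.03 to 12.2 CPM in perivascular progenitors, 58.3 to 98.8 CPM in ICAM1+ preadipocytes and 63.5 to 276 CPM in DPP4+ progenitors. The 7 Schwann and neural markers summed to 6.06 to 18.5 CPM in perivascular preadipocytes, 7.49 to 15.1 CPM in perivascular progenitors, 158 to 187 CPM in ICAM1+ preadipocytes and 69.9 to 156 CPM in DPP4+ progenitors, so that neither list overlapped between depots. The 9 adipocyte markers summed to 1382, 4120.1 and 4807 CPM in perivascular preadipocytes and to 656 to 746 CPM in ICAM1+ preadipocytes. The 13 fibroblast and adipose progenitor markers were lowest where the mitosis genes were highest, at 34514 to 100469 CPM in perivascular preadipocytes, 134260.0 to 214762 CPM in perivascular progenitors, 172174 to 205588 CPM in ICAM1+ preadipocytes and 331534 to 388451 CPM in DPP4+ progenitors. Of the 7 mast cell markers, Fcer1a was at 0 in all perivascular progenitor libraries, and of the Schwann and neural markers Foxd3 was at 0 in all DPP4+ libraries. The part of these cells in the results was not tested.

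**Figure D2:**
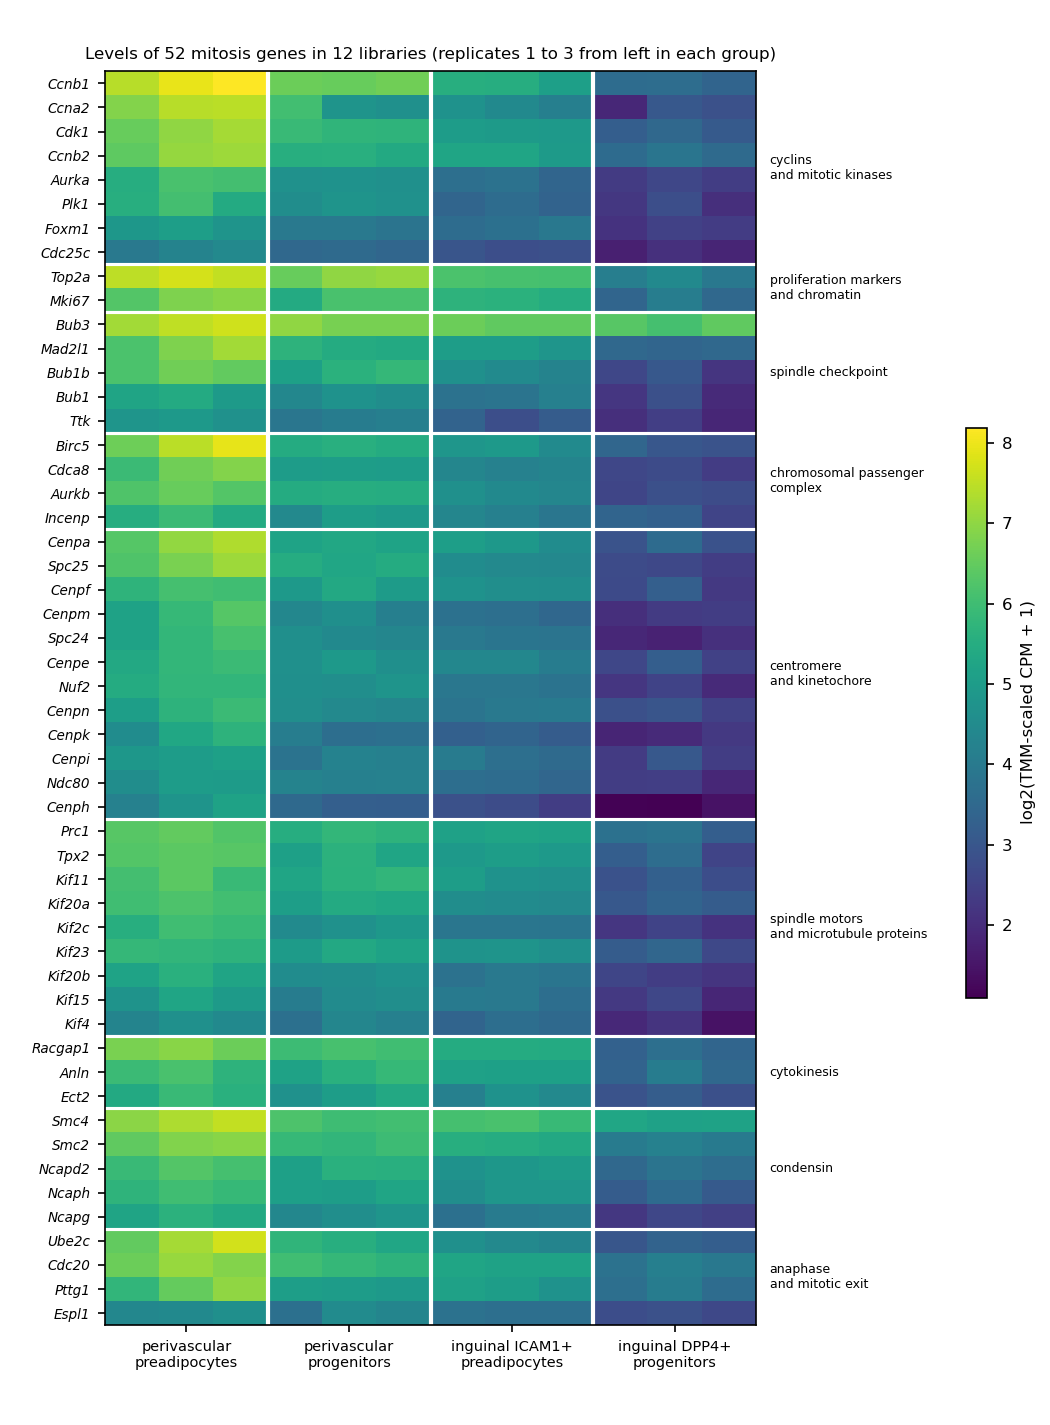
Level of each of the 52 genes (one line each, grouped by role) in each of the 12 libraries (columns, replicates 1 to 3 from left in each group), as log2(TMM-scaled CPM + 1) by colour. Levels decrease from the perivascular preadipocytes on the left to the DPP4+ progenitors on the right in every role, and Bub3 shows the smallest change between the progenitors, 0.53 on the log2 scale.

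Cyclins and mitotic kinases start and time mitosis. Ccnb1, cyclin B1, the partner that activates CDK1 (chromosome 13, 100778650 to 100786570, build mm10), had 172, 249.5 and 292 CPM in perivascular preadipocytes, 95.97, 92.5 and 99.9 in perivascular progenitors, 46.1, 44.5 and 33.2 in ICAM1+ preadipocytes and 11.3, 11.4 and 9.51 in DPP4+ progenitors. The 4 groups were well apart, and its difference between the progenitors was the largest of the 52 (log2 3.16 ± 0.21 (SE), adjusted p = 5.28e-07). Ccnb2, the second B-type cyclin, had 84.7, 132 and 143 CPM in perivascular preadipocytes, 46.1, 46.3 and 41.7 in perivascular progenitors, 37.3, 37.4 and 30.3 in ICAM1+ preadipocytes and 10.9, 13.4 and 10.7 in DPP4+ progenitors. Cdk1, the kinase itself (chromosome 10, 69335146 to 69352938), had 91.8, 127 and 151 CPM in perivascular preadipocytes, 58.6, 51.99 and 51.5 in perivascular progenitors, 31.7, 30.4 and 29.7 in ICAM1+ preadipocytes and 8.29, 10.3 and 7.63 in DPP4+ progenitors. Neither showed any overlap of groups. Both rose in perivascular over DPP4+ progenitors (log2 1.94 and 2.63) and in ICAM1+ over DPP4+ cells (1.58 and 1.81). Named pseudogenes, Ccnb1-ps and Ccnb2-ps, could share reads with both cyclin B genes.

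Ccna2, cyclin A2, which acts in S phase and before mitosis (chromosome 3, 36564865 to 36572150), had 117, 171 and 174 CPM in perivascular preadipocytes, 65.1, 26.5 and 24.1 in perivascular progenitors, 25.4, 21.1 and 16.7 in ICAM1+ preadipocytes and 2.71, 7.29 and 6.23 in DPP4+ progenitors. Perivascular progenitor library 1 was far above the other 2 of its group, and library 3 lay below the highest ICAM1+ library. Its depot difference between preadipocytes was the largest of the 52 (log2 2.87 ± 0.41 (SE), adjusted p = 0.000171), as was its stage difference in perivascular fat (1.99, adjusted p = 0.0028). Of its exon length, 12.5% overlaps Exosc9. Plk1, the polo-like kinase of centrosomes and kinetochores, had 46.1, 66.4 and 42.5 CPM in perivascular preadipocytes, 22.8, 26.3 and 24.7 in perivascular progenitors, 9.56, 11.1 and 9.30 in ICAM1+ preadipocytes and 3.71, 5.92 and 3.12 in DPP4+ progenitors. Aurka, the Aurora kinase of spindle poles, had 45.1, 69.8 and 66.9 CPM in perivascular preadipocytes, 24.6, 25.4 and 24.3 in perivascular progenitors, 11.8, 12.7 and 9.56 in ICAM1+ preadipocytes and 4.0005, 5.09 and 4.18 in DPP4+ progenitors. In both, all groups were separate, and perivascular preadipocyte library 2 was the highest. Plk1 rose between the depots by log2 2.37 in preadipocytes and 2.53 in progenitors (95% interval of the gap -0.80 to 0.48), and Aurka by 2.41 and 2.48 (-0.59 to 0.45).

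Foxm1, the transcription factor that drives many G2 and M phase genes, had 27.9, 32.7 and 26.1 CPM in perivascular preadipocytes, 14.7, 14.7 and 13.1 in perivascular progenitors, 11.3, 12.04 and 14.4 in ICAM1+ preadipocytes and 3.36, 4.56 and 4.10 in DPP4+ progenitors. Perivascular progenitors overlapped ICAM1+ preadipocytes, and DPP4+ progenitors lay below all. Foxm1 rose in all 4 comparisons, by 1.82 between the progenitors, 1.20 between the preadipocytes, 1.03 by stage in perivascular fat and 1.65 by stage in inguinal fat. Cdc25c, the phosphatase that activates CDK1, averaged 17.9 ± 3.09 CPM in perivascular preadipocytes, 10.3 ± 0.431 in perivascular progenitors, 6.28 ± 0.458 in ICAM1+ preadipocytes and 2.70 ± 0.508 in DPP4+ progenitors (SD, n = 3 each). It was among the lowest of the 52 per kb of exon and rose in all 4 comparisons, by 0.80 at the least.

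Ki-67 and topoisomerase II alpha bind chromatin of dividing cells and serve as proliferation markers. Mki67 (chromosome 7, 135689784 to 135716361) had 77.2, 112 and 121 CPM in perivascular preadipocytes, 41.97, 69.9 and 70.7 in perivascular progenitors, 50, 48.1 and 44.3 in ICAM1+ preadipocytes and 9.64, 16.2 and 10.3 in DPP4+ progenitors. Perivascular progenitor library 1 was below all 3 ICAM1+ libraries, while the other 2 were above them. Top2a, which untangles sister chromatids (chromosome 11, 98992943 to 99024189), had 177, 212 and 187 CPM in perivascular preadipocytes, 93.1, 128 and 136 in perivascular progenitors, 72.4, 68.6 and 67.2 in ICAM1+ preadipocytes and 16.6, 20.9 and 14.3 in DPP4+ progenitors. Its groups did not overlap. The depot difference of both was smaller between the preadipocytes (Mki67 log2 1.12 ± 0.25, Top2a 1.47 ± 0.18, SE) than between the progenitors (2.34 ± 0.26 and 2.79 ± 0.19), a gap that passed the interaction test described below.

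Among the 5 spindle checkpoint genes, Bub1b and Bub3 marked the ends of the range. Bub1b, which encodes BUBR1 of the mitotic checkpoint complex (chromosome 2, 118598211 to 118641591), had 71.1, 99.7 and 88.7 CPM in perivascular preadipocytes, 33.7, 48.1 and 55.6 in perivascular progenitors, 24.3, 21.4 and 18.1 in ICAM1+ preadipocytes and 5.14, 7.29 and 3.61 in DPP4+ progenitors. All 4 groups were separate, and perivascular progenitor library 1 was the lowest of its group. Its difference between the progenitors was log2 3.09 ± 0.27 (SE, adjusted p = 4.56e-06). Bub3, the binding partner of BUB1 and BUBR1 (chromosome 7, 131560222 to 131571895), had 146, 181 and 204 CPM in perivascular preadipocytes, 127, 105 and 105 in perivascular progenitors, 96.02, 87.4 and 87.2 in ICAM1+ preadipocytes and 79.9, 67.7 and 86.7 in DPP4+ progenitors. Here the groups lay close together, and DPP4+ library 3 came within 1 CPM of the lowest ICAM1+ library. Bub3 was the 1 gene that did not pass between ICAM1+ and DPP4+ cells (log2 0.21, adjusted p = 0.426), and its difference between the progenitors was the smallest of the 52 (0.53, adjusted p = 0.0275). The call did not hold without library 1 of the perivascular progenitors (0.42, adjusted p = 0.0879), DPP4+ library 1 (0.54, 0.0713) or DPP4+ library 2 (0.43, 0.117).

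Mad2l1, whose protein holds CDC20 inactive, averaged 110.4 ± 38.1 CPM in perivascular preadipocytes, 44.97 ± 4.59 in perivascular progenitors, 30.4 ± 3.22 in ICAM1+ preadipocytes and 10.1 ± 0.371 in DPP4+ progenitors. Bub1, the kinase that recruits checkpoint proteins, averaged 36.4 ± 6.02 CPM in perivascular preadipocytes, 22.7 ± 2.84 in perivascular progenitors, 14.4 ± 2.58 in ICAM1+ preadipocytes and 4.20 ± 1.67 in DPP4+ progenitors. Ttk, the kinase MPS1 at the head of the checkpoint, averaged 27.1 ± 2.32 CPM in perivascular preadipocytes, 15.5 ± 1.73 in perivascular progenitors, 7.73 ± 1.66 in ICAM1+ preadipocytes and 3.37 ± 0.873 in DPP4+ progenitors (SD, n = 3 each for all 3 genes). Each kept the 4 groups apart and rose in all 4 comparisons, with log2 fold changes between the progenitors of 2.16, 2.43 and 2.20. Bub1 passed narrowly between perivascular stages (log2 0.68, adjusted p = 0.0454), and not with the replicate block (0.68, adjusted p = 0.052).

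The chromosomal passenger complex corrects wrong attachments of chromosomes and later marks the site of division. Aurkb, its kinase (chromosome 11, 69045647 to 69051664), had 74.3, 92.4 and 78.05 CPM in perivascular preadipocytes, 42.8, 44.7 and 43.6 in perivascular progenitors, 24.1, 21.2 and 19.3 in ICAM1+ preadipocytes and 4.93, 6.15 and 5.66 in DPP4+ progenitors. Birc5, survivin (chromosome 11, 117849251 to 117855743), had 97.1, 177 and 245 CPM in perivascular preadipocytes, 43.1, 46.2 and 43.2 in perivascular progenitors, 27.1, 29.8 and 21.5 in ICAM1+ preadipocytes and 9.93, 7.14 and 6.56 in DPP4+ progenitors. Groups of both genes were separate, but the highest perivascular preadipocyte library was 2.52 times the lowest in Birc5 and 1.24 times in Aurkb. Aurkb rose by log2 1.92 ± 0.14 between the preadipocytes and 2.97 ± 0.16 between the progenitors (SE), and Birc5 by 2.72 ± 0.29 and 2.48 ± 0.29. Cdca8, borealin, averaged 91.7 ± 29.1 CPM in perivascular preadipocytes, 31.6 ± 0.415 in perivascular progenitors, 18.6 ± 1.03 in ICAM1+ preadipocytes and 4.93 ± 0.745 in DPP4+ progenitors. Incenp, the scaffold of the complex, averaged 49.2 ± 9.75 CPM in perivascular preadipocytes, 27.5 ± 6.01 in perivascular progenitors, 16.8 ± 2.84 in ICAM1+ preadipocytes and 7.69 ± 2.43 in DPP4+ progenitors (SD, n = 3 each). Both rose in all 4 comparisons, Cdca8 with no less than 1.54 and Incenp with no less than 0.84 on the log2 scale.

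The 12 centromere and kinetochore genes rose in all 4 comparisons. Cenpa, the centromeric histone H3 variant (chromosome 5, 30666777 to 30674830), had 78.6, 129.7 and 163 CPM in perivascular preadipocytes, 35.98, 39.9 and 35.98 in perivascular progenitors, 32.4, 28.2 and 22.4 in ICAM1+ preadipocytes and 6.501, 10.9 and 6.32 in DPP4+ progenitors. Cenpk, of the inner kinetochore network, had 22.5, 38.8 and 50.6 CPM in perivascular preadipocytes, 16.2, 11.6 and 12.2 in perivascular progenitors, 8.64, 9.45 and 8.02 in ICAM1+ preadipocytes and 2.57, 2.81 and 3.85 in DPP4+ progenitors. In both, perivascular preadipocyte libraries were spread more than 2-fold, with library 1 the lowest, and the groups stayed apart. Cenpa rose between the depots by log2 2.16 in preadipocytes and 2.23 in progenitors, and Cenpk by 2.10 and 2.12. The 95% intervals of the gap between the stages ran from -0.80 to 0.66 for Cenpa and from -0.72 to 0.69 for Cenpk.

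The NDC80 complex is the part of the kinetochore that grips microtubules. Its subunit gene Ndc80 had 22.8, 31.6 and 31.01 CPM in perivascular preadipocytes, 18.3, 17.1 and 17.6 in perivascular progenitors, 11.703, 11.2 and 9.87 in ICAM1+ preadipocytes and 4.21, 4.33 and 2.71 in DPP4+ progenitors. Spc24 (chromosome 9, 21755442 to 21760303) had 35.1, 55.1 and 68.7 CPM in perivascular preadipocytes, 23.6, 21.1 and 19.4 in perivascular progenitors, 14.5, 13.4 and 13.3 in ICAM1+ preadipocytes and 2.71, 2.43 and 3.20 in DPP4+ progenitors. Spc25 (chromosome 2, 69193895 to 69206194) had 75.01, 108 and 141 CPM in perivascular preadipocytes, 44.3, 38.3 and 43.4 in perivascular progenitors, 22.2, 20.6 and 20.1 in ICAM1+ preadipocytes and 5.57, 5.16 and 4.26 in DPP4+ progenitors. DPP4+ progenitors were several-fold below every other group for all 3, and no groups overlapped. Spc25 had the third largest difference between the progenitors (log2 3.07 ± 0.22, adjusted p = 9.86e-07) and Spc24 the largest between the inguinal stages (2.31 ± 0.24, adjusted p = 2.87e-05, SE). Nuf2, the partner of Ndc80 in the complex, averaged 50.1 ± 6.02 CPM in perivascular preadipocytes, 24.4 ± 1.68 in perivascular progenitors, 13.7 ± 0.666 in ICAM1+ preadipocytes and 3.77 ± 0.962 in DPP4+ progenitors (SD, n = 3 each).

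Cenpe, a kinesin that carries chromosomes along microtubules, had 40.9, 54.8 and 60.6 CPM in perivascular preadipocytes, 24.5, 29.8 and 23.97 in perivascular progenitors, 19.9, 19.9 and 15.8 in ICAM1+ preadipocytes and 5.14, 8.28 and 4.51 in DPP4+ progenitors. Cenpf, a large protein of the outer kinetochore, had 51.1, 66.98 and 64.05 CPM in perivascular preadipocytes, 29.8, 40.8 and 30.6 in perivascular progenitors, 25.2, 23.4 and 23.03 in ICAM1+ preadipocytes and 5.43, 8.43 and 3.85 in DPP4+ progenitors. The groups of both were separate, and DPP4+ library 2 was the highest of its group for both. Cenpf rose by log2 1.35 between the preadipocytes and 2.51 between the progenitors, and Cenpe by 1.49 and 2.12. Cenph, Cenpi, Cenpm and Cenpn belong to the constitutive centromere network. Cenpm averaged 57.1 ± 21.9 CPM in perivascular preadipocytes, 20.2 ± 3.57 in perivascular progenitors, 11.5 ± 1.22 in ICAM1+ preadipocytes and 3.78 ± 0.560 in DPP4+ progenitors, and Cenph averaged 26.4 ± 8.78 CPM in perivascular preadipocytes, 9.11 ± 1.14 in perivascular progenitors, 5.42 ± 1.03 in ICAM1+ preadipocytes and 1.36 ± 0.317 in DPP4+ progenitors (SD, n = 3 each). Cenph had the lowest counts of the 52, down to 15 in a DPP4+ library. Their changes between the progenitors were 2.75 for Cenph, 1.62 for Cenpi, 2.42 for Cenpm and 1.86 for Cenpn, and Cenpi alone of the 4 had perivascular progenitor libraries (12.9 to 17.8 CPM) that overlapped ICAM1+ libraries (10.7 to 15.63 CPM).

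Motors and microtubule proteins build the spindle. Kif11, the kinesin that pushes spindle poles apart (chromosome 19, 37376403 to 37421859), had 66.6, 83.9 and 59.3 CPM in perivascular preadipocytes, 37.5, 48.2 and 53.99 in perivascular progenitors, 31.8, 25.2 and 24.4 in ICAM1+ preadipocytes and 6.36, 8.66 and 5.91 in DPP4+ progenitors. Kif4, a kinesin of chromosome arms and the central spindle, had 18.5, 24.1 and 21.03 CPM in perivascular preadipocytes, 12.03, 19.4 and 17.1 in perivascular progenitors, 9.38, 11.6 and 10.6 in ICAM1+ preadipocytes and 2.79, 3.49 and 1.72 in DPP4+ progenitors. Tpx2, which activates Aurora A on the spindle, had 77.3, 82.97 and 79.8 CPM in perivascular preadipocytes, 34.2, 49.3 and 37.6 in perivascular progenitors, 29.7, 31.9 and 29.5 in ICAM1+ preadipocytes and 8.22, 11.3 and 4.84 in DPP4+ progenitors. All 3 were lowest in DPP4+ progenitors, and perivascular preadipocytes overlapped perivascular progenitors in Kif4 only. Kif4 rose between the progenitors (log2 2.59, adjusted p = 1.69e-05) and did not pass between the perivascular stages (0.39, adjusted p = 0.226). Of its exon length, 15.1% overlaps Pdzd11, and a pseudogene, Kif4-ps, could share its reads.

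The other 6 genes of this group rose in the 2 depot comparisons and between the inguinal stages. Between the progenitors their log2 fold changes were 2.46 for Kif20b, 2.67 for the microtubule depolymerase gene Kif2c, 2.40 for Kif15, which aids Kif11, 2.21 for Kif20a, 2.20 for Kif23 and 2.14 for Prc1, which bundles microtubules of the central spindle. Between the perivascular stages Kif15 did not pass (log2 0.60, adjusted p = 0.0665). Kif20a shares 29.3% of its exon length with Cdc23, so its value is uncertain where counting did not use strand. Kif2c averaged 55.7 ± 9.27 CPM in perivascular preadipocytes, 24.9 ± 3.25 in perivascular progenitors, 13.7 ± 0.272 in ICAM1+ preadipocytes and 3.90 ± 0.709 in DPP4+ progenitors, and Prc1 averaged 81.8 ± 7.07 CPM in perivascular preadipocytes, 49.9 ± 4.42 in perivascular progenitors, 35.6 ± 0.890 in ICAM1+ preadipocytes and 11.3 ± 2.64 in DPP4+ progenitors (SD, n = 3 each).

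Cytokinesis splits the cell. Racgap1, which with KIF23 forms centralspindlin (chromosome 15, 99620496 to 99651656), had 108, 122 and 96.5 CPM in perivascular preadipocytes, 61.7, 69.4 and 64.004 in perivascular progenitors, 42.8, 43.4 and 42.05 in ICAM1+ preadipocytes and 8.86, 11.997 and 9.60 in DPP4+ progenitors. Anln, anillin of the contractile ring (chromosome 9, 22332012 to 22389188), had 60.6, 70.4 and 49.9 CPM in perivascular preadipocytes, 35.6, 47.7 and 56.5 in perivascular progenitors, 34.7, 34.3 and 33.9 in ICAM1+ preadipocytes and 9.29, 15.9 and 10.3 in DPP4+ progenitors. Racgap1 had separate groups, whereas perivascular preadipocytes and progenitors overlapped in Anln, with progenitor library 3 above preadipocyte library 3. Racgap1 rose by log2 1.35 ± 0.14 between the preadipocytes and 2.68 ± 0.15 between the progenitors, and by 0.74 ± 0.14 between the perivascular and 2.07 ± 0.15 between the inguinal stages (SE). Anln rose by 0.81 between the preadipocytes, the smallest of the 52 there, and by 1.98 between the progenitors, and did not pass between the perivascular stages (0.37, adjusted p = 0.207). Ect2, which activates RhoA at the division plane, averaged 49.2 ± 9.19 CPM in perivascular preadipocytes, 32.4 ± 8.10 in perivascular progenitors, 21.02 ± 3.94 in ICAM1+ preadipocytes and 6.92 ± 1.07 in DPP4+ progenitors (SD, n = 3 each).

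Condensin folds chromosomes into compact bodies. Smc2 had 86.7, 115 and 122 CPM in perivascular preadipocytes, 56.3, 53.6 and 61.6 in perivascular progenitors, 46.02, 43.7 and 40.5 in ICAM1+ preadipocytes and 15.4, 17.7 and 15.3 in DPP4+ progenitors, and its groups were separate. Smc4, the partner of Smc2 in the condensin core (chromosome 3, 69004738 to 69034623), had 123, 159 and 185 CPM in perivascular preadipocytes, 73.2, 62.6 and 64.6 in perivascular progenitors, 67.8, 69.9 and 58.2 in ICAM1+ preadipocytes and 38.2, 34.9 and 35.6 in DPP4+ progenitors. Perivascular progenitors and ICAM1+ preadipocytes overlapped in Smc4, and its difference between the progenitors was the second smallest (log2 0.88 ± 0.16 (SE), adjusted p = 0.00135). Between the preadipocytes it was 1.25 ± 0.16, a gap that did not pass the interaction test in edgeR. The condensin I genes Ncapd2, Ncaph and Ncapg rose in all 4 comparisons, by 1.87, 1.95 and 2.41 between the progenitors. Ncapg shares 13.4% of its exon length with Lcorl.

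Exit from mitosis runs through the anaphase-promoting complex. Cdc20, its activator (chromosome 4, 118432901 to 118437352), had 96.1, 135 and 117 CPM in perivascular preadipocytes, 63.2, 55.5 and 50.6 in perivascular progenitors, 37.2, 35.6 and 35.7 in ICAM1+ preadipocytes and 12.6, 16.8 and 14.3 in DPP4+ progenitors. Ube2c, its ubiquitin-conjugating enzyme (chromosome 2, 164769898 to 164778822), had 88.98, 149 and 207 CPM in perivascular preadipocytes, 52.1, 45.4 and 38.4 in perivascular progenitors, 24.3, 20.6 and 18.7 in ICAM1+ preadipocytes and 6.93, 9.19 and 8.37 in DPP4+ progenitors. Their groups were separate, and in Ube2c perivascular preadipocyte library 1 was under the other 2. Ube2c had the second largest difference between the preadipocytes (log2 2.81 ± 0.27 (SE), adjusted p = 1.11e-05), with 22.8% of its exon length shared with Tnnc2. Pttg1, securin, the inhibitor of separase (chromosome 11, 43420250 to 43426251), had 53.3, 90.5 and 128 CPM in perivascular preadipocytes, 32.7, 31.3 and 28.9 in perivascular progenitors, 34.7, 32.3 and 25.4 in ICAM1+ preadipocytes and 11.9, 15.8 and 11.2 in DPP4+ progenitors. Espl1, separase, which cuts cohesin (chromosome 15, 102296266 to 102324357), had 19.96, 21.1 and 23.8 CPM in perivascular preadipocytes, 12.2, 21.8 and 19.1 in perivascular progenitors, 12.6, 11.9 and 11.8 in ICAM1+ preadipocytes and 5.79, 6.23 and 5.25 in DPP4+ progenitors. In both, perivascular progenitors overlapped ICAM1+ preadipocytes, and in Espl1 they also overlapped perivascular preadipocytes. Pttg1 rose by 1.56 between the preadipocytes and 1.55 between the perivascular stages, while Espl1 rose by 1.62 between the progenitors and did not pass between the perivascular stages (0.29, adjusted p = 0.288).

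**Figure D3:**
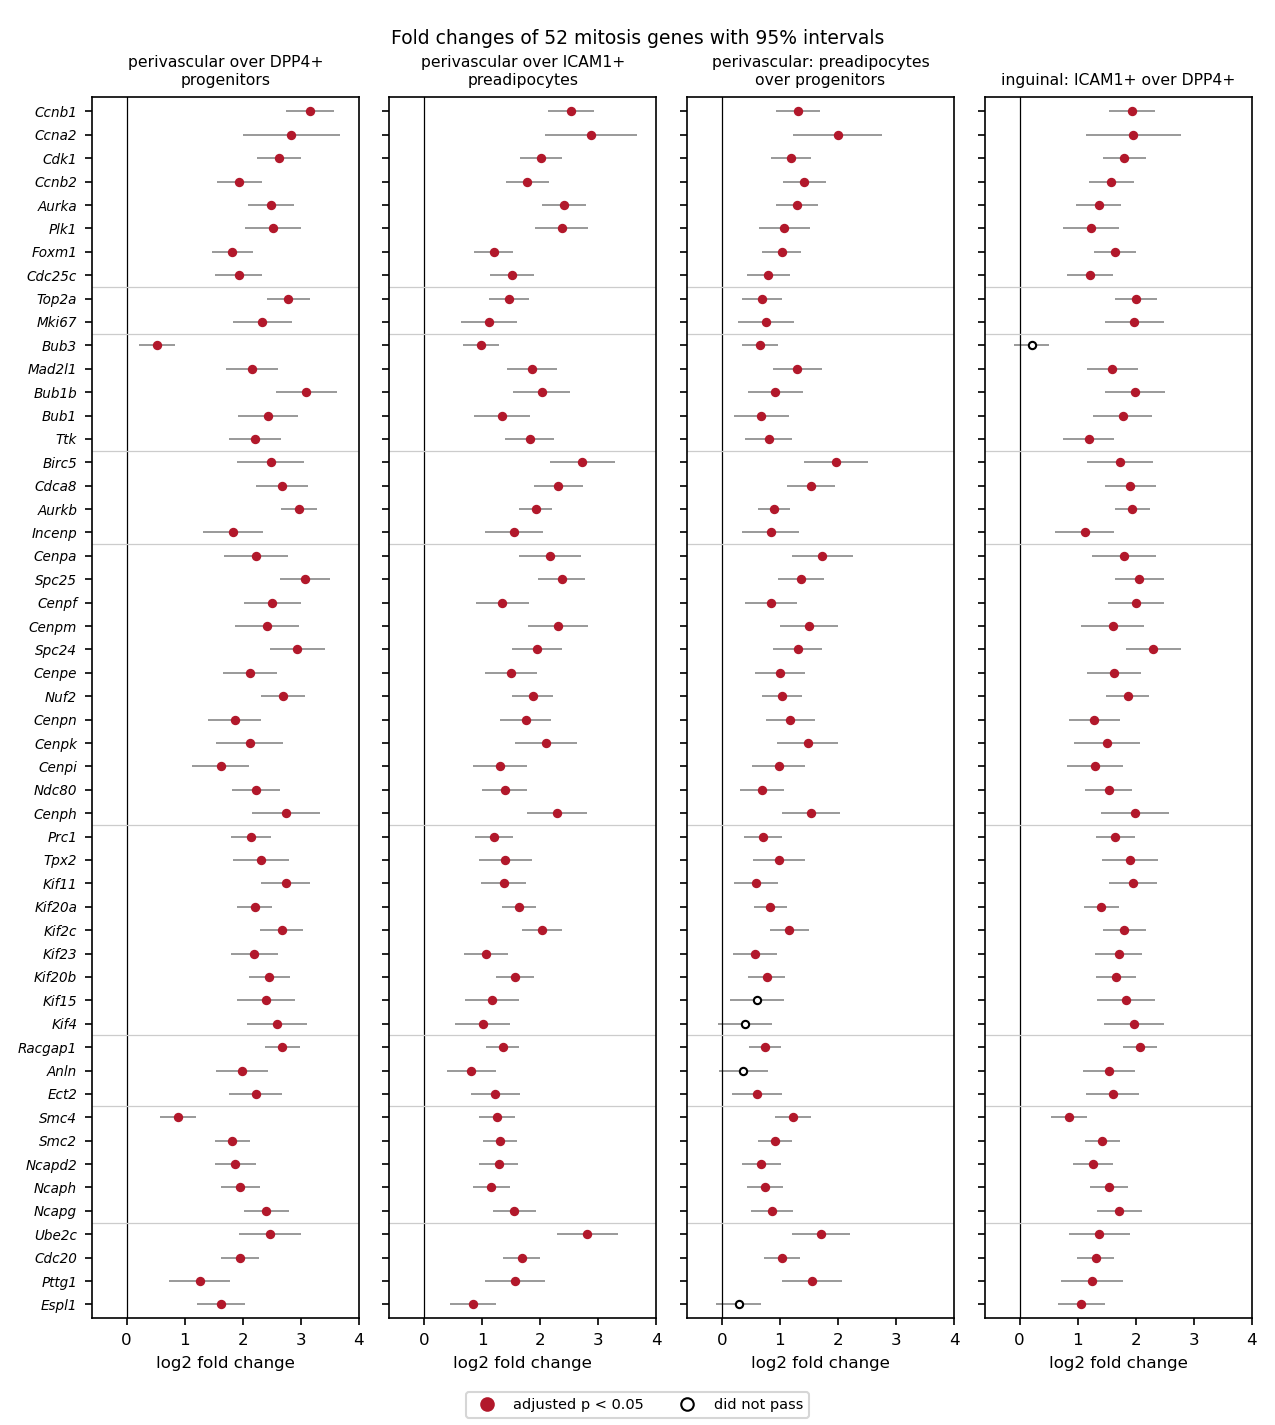
Log2 fold change of each of the 52 genes (points) with its 95% interval (lines), in the 4 comparisons, in the order of roles used for the levels. Filled points passed an adjusted p of 0.05 (52, 52, 48 and 51 genes from left to right), and open points did not.

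Between the progenitors the changes ran from 0.53 for Bub3 to 3.16 for Ccnb1. By role, cyclins and kinases had a median of 2.51, the passenger complex 2.58, spindle motors 2.40, kinetochore genes 2.33, condensin 1.87 and the 4 genes of mitotic exit 1.79. Of 78 other mitosis genes, 51 rose, among them Ska1 (log2 3.15), of the complex that tracks microtubule ends, Ccnf (2.92), cyclin F, and Nsl1 (2.89), of the MIS12 complex. All 12 S phase genes rose (median 1.53), with the ribonucleotide reductase gene Rrm2 at 2.49, the replication licensing gene Cdc6 at 2.05, the helicase gene Mcm5 at 2.03 and the thymidylate synthase gene Tyms at 1.89. Of 10 MuvB and pocket protein genes, which encode the complexes that read TTTGAA, 3 rose: Tfdp1 (0.81, adjusted p = 0.0316), Lin9 (0.78, adjusted p = 0.027) and Rbl1 (0.49, adjusted p = 0.0472). With library totals in place of TMM factors the median of all genes was 0.48 and that of the 52 genes 2.74.

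Between the preadipocytes the 52 genes ran from 0.81 for Anln to 2.87 for Ccna2. Cyclins and kinases had a median of 2.19, the passenger complex 2.11 and kinetochore genes 1.91, against 1.37 for spindle motors, 1.28 for condensin and 1.23 for cytokinesis genes. Of the 78 other mitosis genes 53 rose and 4 fell. Those with the largest rise were Cenpw (2.73), of the centromere network, Cdca3 (2.63), Ccnf (2.35) and Esco2 (2.31), a cohesin acetyltransferase. The 4 that fell were Anapc2 (-0.77, adjusted p = 0.0101) and Cdc27 (-0.55, adjusted p = 0.0167), subunits of the anaphase-promoting complex, Ube2s (-0.44, adjusted p = 0.0389), one of its conjugating enzymes, and Stag2 (-0.62, adjusted p = 0.0263), a cohesin subunit. The count of 4 lower genes was 1 with library totals or without ICAM1+ library 2, and 2 without ICAM1+ library 3 or perivascular preadipocyte library 2 or 3. It was 7 without perivascular progenitor library 1 or with 2 groups alone, and 8 with limma-voom. All 12 S phase genes rose (median 1.40), with Rrm2 at 2.63, Tyms at 1.84 and Cdt1, which loads the replicative helicase, at 1.79. Of the MuvB and pocket protein genes, E2f5 (1.84, adjusted p = 0.017), Tfdp1 (1.47, adjusted p = 0.000591), Lin9 (1.06, adjusted p = 0.00264) and Lin37 (0.75, adjusted p = 0.00715) rose. Rbl2, the pocket protein p130 of resting cells, fell (-0.57, adjusted p = 0.0336).

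Within perivascular fat, preadipocytes exceeded progenitors by at most 1.99 (Ccna2) and 1.97 (Birc5). The 4 genes that did not pass were Anln, Espl1, Kif4 and Kif15, and 3 of these had overlapping libraries. In this comparison single libraries and the groups fitted together changed calls. Of the 52 genes, 37 were higher without perivascular preadipocyte library 2, 41 without library 3 of that group, and 42 without perivascular progenitor library 1 or library 2. Over all genes, 4028, 3964, 7642 and 4425 were then called, against 6198 in the main fit. With the 2 perivascular groups alone 9 of the 48 calls were lost, those of Mki67, Top2a, Bub1, Bub3, Ndc80, Kif11, Kif23, Ect2 and Ncapd2. In that fit 2825 of 17453 genes were called. The calls of Bub1, Kif23, Ect2 and Kif11 were lost most often, and 35 genes were called in each of 21 settings. Of the 78 other mitosis genes 44 rose, led by Cenpw (1.95), Cdca3 (1.89), Pmf1 (1.53) of the MIS12 complex and Cenpp (1.47), and 5 fell, of which Anapc2 (-0.75), Anapc1 (-0.70), Stag2 (-0.67) and Numa1 (-0.56) fell most. The count of 5 lower genes was 0 with 2 groups alone or without perivascular progenitor library 3, 1 with library totals or without perivascular progenitor library 2 or preadipocyte library 3, and 2 without perivascular preadipocyte library 2. It was 3 without any 1 of the ICAM1+ libraries or DPP4+ library 1 or 2, and 8 with limma-voom. Of 12 S phase genes 11 rose (median 0.90), all but Mcm4 (0.22, adjusted p = 0.328), with Rrm2 at 1.70, Cdt1 at 1.38, Tyms at 1.28 and Gins2 at 1.10. Rbl2 fell in preadipocytes (-1.06, adjusted p = 0.00236), while Tfdp1 (1.10), Lin9 (0.91) and Rbl1 (0.65), the pocket protein p107, rose.

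Within inguinal fat, ICAM1+ preadipocytes exceeded DPP4+ progenitors by 2.31 (Spc24), 2.07 (Racgap1) and 2.07 (Spc25) at the most, and by 1.07 (Espl1), 0.85 (Smc4) and 0.21 (Bub3, not passed) at the least. Medians by role lay between 1.28 for the genes of mitotic exit and 1.99 for Mki67 and Top2a. Of the 78 other mitosis genes 41 rose, with Ska1 at 2.75, the cohesin protector gene Cdca5 at 2.25 and Nsl1 at 2.05. All 12 S phase genes rose (median 1.20), led by Rrm2 (1.57), Cdc6 (1.57), Mcm5 (1.47) and Cdt1 (1.34). Of the 10 MuvB and pocket protein genes only Rbl1 passed (0.75, adjusted p = 0.00676), a share near the 9.34% of all tested genes called higher. DPP4+ library 2, with the most mast and haematopoietic marker RNA, also had the highest level of its group for 41 of the 52 mitosis genes. Its sums of endothelial, erythroid, mesothelial, smooth muscle, pericyte, Schwann and neural, and adipocyte markers were the highest of the group as well. That of the fibroblast and adipose progenitor markers was the lowest. A link between these levels was not tested.

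The interaction asks whether the depot difference had the same size at both stages. It is the perivascular over inguinal log2 fold change in preadipocytes minus that in progenitors, and equals the stage difference in perivascular fat minus that in inguinal fat. Of the 52 genes 16 were called, all with negative values, so that their depot difference was smaller between the preadipocytes (median of the 52 -0.63, against -0.00 over all genes), where 15% of all genes were called, 6.37% higher and 8.66% lower. At an unadjusted p under 0.05, 30 of the 52 were negative and 0 positive, and of the 78 other mitosis genes 17 were negative and 6 positive. The share of all genes at this looser threshold is not given here, and the shares above do not apply to it. At the adjusted threshold, edgeR, DESeq2 and limma-voom called 0, 0 and 2 of the 52 positive. Kif4 (-1.58, adjusted p = 0.0111), Kif11 (-1.37, adjusted p = 0.00784), Racgap1 (-1.33, adjusted p = 0.00129) and Top2a (-1.32, adjusted p = 0.00433) had the largest values. By role, calls were made for 6 of 9 motors and microtubule proteins, 3 of 3 cytokinesis genes, 2 of 2 proliferation markers, 2 of 5 condensin genes, 2 of 12 kinetochore genes and 1 of 4 passenger genes. With the replicate block the call of the kinetochore gene Nuf2 was lost (-0.84, adjusted p = 0.0679). By edgeR calls were made for 0 of 8 cyclins and kinases, 0 of 5 checkpoint genes and 0 of 4 exit genes, of which 3, 2 and 1 had an unadjusted p under 0.05. DESeq2 called 2 of these (Bub1 and Bub1b), and limma-voom 5 (Cdk1, Bub1, Bub1b, Bub3 and Espl1). Over all genes DESeq2 called 3776 and limma-voom 8384 of 18855 in either direction, against 2834 by edgeR. Aurka (-0.07), Plk1 (-0.16), Ccna2 (0.03) and Cenpk (-0.02) lay close to 0, and Bub3 (0.45, adjusted p = 0.188) and Smc4 (0.37, adjusted p = 0.278) had positive values that did not pass in edgeR, but did in limma-voom (0.53 and 0.47).

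The count of 16 moved with single libraries. It was 25 without perivascular progenitor library 1, 7 without library 2 and 8 without library 3 of that group, 6 without ICAM1+ library 2 and 8 without library 3, and 8 without DPP4+ library 1 and 7 without library 3. The calls over all genes moved as well, from 2834 of 18855 in the main fit to 4847 of 19719 without perivascular progenitor library 1. In the other fits just named they numbered 1666 to 1981. Only Aurkb, Kif11, Kif23, Kif4, Racgap1 and Top2a were called in each of 20 settings. Of the 78 other mitosis genes 8 were lower, a share near the 8.66% of all tested genes called lower. Among the 8 were Nsl1 (-1.50), Ska1 (-1.31) and Ckap2 (-0.98). Of the 12 S phase genes 2 were lower, Mcm2 (-0.61, adjusted p = 0.0446) and Mcm3 (-0.72, adjusted p = 0.047). The 10 MuvB and pocket protein genes had interactions from -0.49 to 0.66, and the pair with the highest levels, Rbbp4 (-0.36, adjusted p = 0.445) and Tfdp1 (0.66, adjusted p = 0.216), did not pass.

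**Figure D4:**
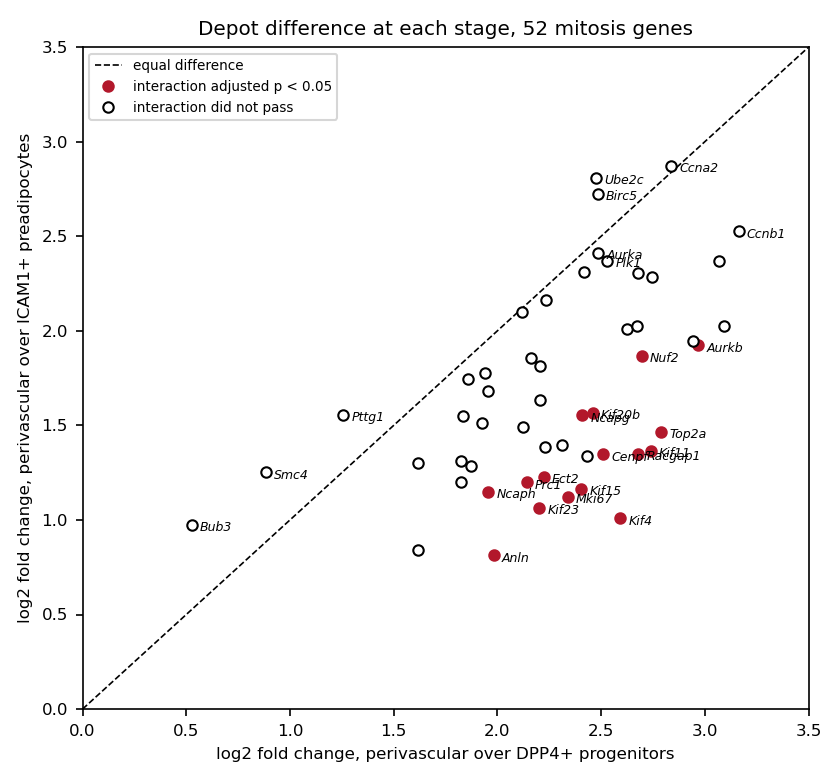
Log2 fold change of each of the 52 genes between the depots, in progenitors (x axis) and in preadipocytes (y axis), with filled points for the 16 genes called in the interaction and a dashed line for equal values. The filled points lie below the line, Kif4 farthest with 1.01 in preadipocytes and 2.59 in progenitors.

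The interaction moved with the exon length of the genes. Split by length, 2 of the 17 shortest genes (1531 to 4307 bases of exon), 2 of the 18 in the middle and 12 of the 17 longest (6341 to 15433 bases) were called, with medians of -0.16, -0.54 and -0.94. Across the 52 genes Spearman's rho between length and the interaction was -0.53 and Pearson's r -0.51, against a rho of -0.10 over 18847 genes. These points share all 12 libraries, and the correlations are descriptions. The rho was -0.66 for the depot difference between the preadipocytes and -0.63 for the stage difference in perivascular fat, both of which use perivascular preadipocytes, against -0.17 between the progenitors and 0.11 between the inguinal stages. Over all genes these values were -0.14, -0.22, -0.07 and -0.15 in the same order. There the inguinal stages, without perivascular preadipocytes, had a rho close to that between the preadipocytes. Within perivascular preadipocytes, library 3 exceeded library 1 by a median of 0.76 (log2) in the shortest genes and 0.23 in the longest, with a rho of -0.37 over the 52 genes and -0.30 over all genes. Libraries of other groups also differed by length. The rho was 0.48 over the 52 genes and 0.19 over all genes for perivascular progenitor library 3 minus library 1. For DPP4+ library 3 minus library 2 it was -0.30 and -0.22. In ICAM1+ preadipocytes it ran from 0.07 to 0.23 over the 52 genes. In perivascular preadipocytes, Birc5, Pttg1 and Ube2c, with 3402, 2000 and 2600 bases of exon, had the widest spread over the 3 libraries. In perivascular progenitors and in DPP4+ progenitors it was Ccna2, with 4083 bases, and in ICAM1+ preadipocytes Ttk, with 4919 bases. The part of transcript length in the interaction was not tested.

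**Figure D5:**
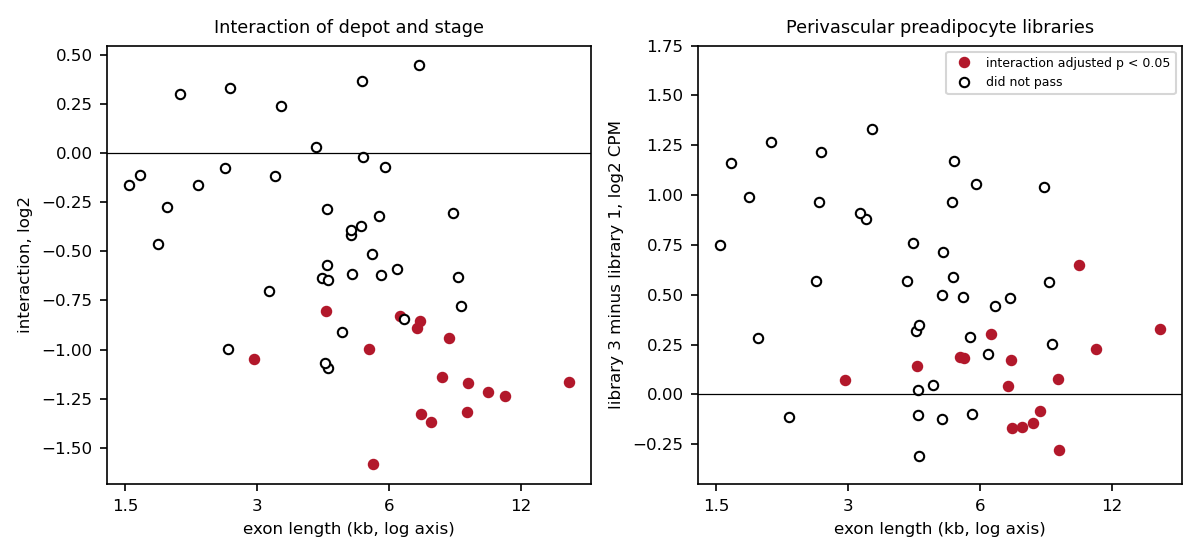
Left, the interaction (log2) of each of the 52 genes against its exon length (kb, log axis). Right, the difference between perivascular preadipocyte libraries 3 and 1 (log2 CPM) against the same length. Filled points are the 16 genes called in the interaction, of which 12 are among the 17 longest, where the median interaction was -0.94.

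The likeness between the 52 genes was measured in pairs. Over the 12 libraries, Pearson's r of log2 CPM between pairs of them had a median of 0.97 (lowest 0.71, 1326 pairs), which includes the differences between groups. With each group's mean taken out, r had a median of 0.47 and ran from -0.71 to 0.98. Over the 12 libraries with group differences kept, Bub3 was the least like the rest, with a mean r of 0.857, followed by Smc4 (0.920), Pttg1 (0.924) and Anln (0.934). Relative to exon length, the highest mean levels in perivascular preadipocytes were 78.3 CPM per kb for Ccnb2, 62.1 for Cdc20, 57.1 for Ube2c and 56.4 for Ccnb1, and the lowest 2.47 for Espl1 and 2.82 for Kif15. In DPP4+ progenitors the highest were 11.1 CPM per kb for Bub3, 7.797 for Cdc20 and 7.61 for Ccnb2. The order of the 52 levels was close in all groups, with a rho from 0.859 between perivascular preadipocytes and DPP4+ progenitors to 0.962 between perivascular progenitors and ICAM1+ preadipocytes.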

How the data were processed

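RNA of 12 libraries of sorted stromal cells was measured by sequencing after low-input poly(A) cDNA synthesis (SMART-Seq v4, per the labels' protocols). The authors deposited raw counts per gene. Reads were aligned with STAR 2.5.2a to mm10 and DESeq2 1.26.0 is also named, per the submitters' processing notes; the counting tool, annotation and strand setting were not given in the sources used here. Reads carry no molecular identifiers. The deposited normalized and regularised log2 tables were not used, and 0 columns were left without a sample.

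Genes were kept by edgeR 4.0.16 filterByExpr (minimum count 10), scaled by TMM and fitted in 1 quasi-likelihood model of the 4 groups in R 4.3.3, with Benjamini-Hochberg adjustment over 18855 genes and a threshold of 0.05. The SE is the absolute log2 fold change over the square root of F, and 95% intervals are normal-based. For each gene, intervals and p-values rest on 1 estimate of the spread between libraries of pooled pups, shared by the 4 groups of 3 libraries. A comparison of 2 groups therefore also uses the spread of the other 2. The main fit does not use the pools that libraries of the same number share. No pair of libraries held identical values. DESeq2 1.42.0, limma 3.58.1 (voom with library weights), other scalings and filters, 2 groups alone, and each library left out in turn were the alternatives, beside a fit without the 3 libraries that an earlier account set apart. The fit was tested on simulated data. Libraries with 1 number share a pool by the labels, so the numbers pair them; deviations from group means of same-numbered libraries correlated between -0.21 and 0.15 (median 0.0093, 18 pairs).

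Of 31099 genes, 10712 had no symbol. Genes named with values in every library were a fixed set plus the 3 largest and 3 smallest changes in each comparison; of the other lists, up to 4 called genes in each direction are named, except 1 that is not reported here. The 52 genes and all lists were chosen with earlier results of these data known. Exon lengths come from GENCODE, promoter windows from RefSeq, and figures were drawn with matplotlib 3.10.9 in Python 3.11.15.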

Additional observations from a re-analysis of the deposited data

Results flagged for a closer look

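For 16 of the 52 mitosis genes the depot difference was smaller between the preadipocytes than between the progenitors, by the interaction test of edgeR. The first value is the log2 difference between the preadipocyte and the progenitor value and the other its Benjamini-Hochberg adjusted p. The proliferation markers were Mki67 (-1.22, 0.0355) and Top2a (-1.32, 0.00433). Among motors and microtubule proteins they were Kif4 (-1.58, 0.0111), Kif11 (-1.37, 0.00784), Kif15 (-1.24, 0.0309), Kif23 (-1.14, 0.017), Prc1 (-0.94, 0.0192) and Kif20b (-0.89, 0.0252), and among cytokinesis genes Racgap1 (-1.33, 0.00129), Anln (-1.17, 0.0259) and Ect2 (-0.998, 0.0492). The others were the passenger kinase gene Aurkb (-1.05, 0.00553), the kinetochore genes Cenpf (-1.16, 0.0341) and Nuf2 (-0.83, 0.0453) and the condensin genes Ncapg (-0.85, 0.0488) and Ncaph (-0.80, 0.0358). With libraries of the same number paired, Nuf2 was no longer called (-0.84, 0.0679). Of the 16, 12 were among the 17 with the longest exons, and the part of transcript length in the difference was not tested.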

How the results depend on the processing

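The 52 genes kept their direction in the 4 pairwise comparisons under all settings run. Without 1 library at a time, 51 to 52 were higher between the progenitors, 52 between the preadipocytes, 37 to 48 between the perivascular stages and 51 between the inguinal stages. With 2 groups alone, 9 calls between the perivascular stages were lost, among them those of Mki67 and Top2a.

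With the replicate block, which pairs libraries of the same number, 52, 52, 46 and 51 of the genes were higher and 15 lower in the interaction. It ended the calls of Bub1 (0.68, adjusted p = 0.052) and Kif11 (0.57, adjusted p = 0.0547) between the perivascular stages and of Nuf2 in the interaction (-0.84, adjusted p = 0.0679), and no other call of the 52 genes.

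In the interaction, members called lower ranged from 6 to 25 and higher from 0 to 1 without 1 library at a time. Limma-voom called 27 lower and 2 higher, and the fit without 3 libraries (perivascular progenitor 1, perivascular preadipocyte 1 and DPP4+ 2) called 29 and 2. Over all genes these 2 fits called 8384 of 18855 and 7783 of 19396 in either direction, against 2834 of 18855 in the main fit. With scaling by library totals the median of all genes was 0.48 between the progenitors, 0.27 between the preadipocytes, 0.12 by stage in perivascular fat, 0.40 in inguinal fat and -0.21 in the interaction, against 0.0538, 0.0419, -0.0479, 0.0239 and -0.0032 with TMM. The medians of the 52 genes were then 2.74, 1.79, 2.02 (inguinal stages) and -0.82 (interaction). Higher calls then made up 83.7%, 66.5%, 66.3%, 82.6% and 23.3% of all calls, against 52.5%, 52.2%, 51.1%, 52% and 42.4% with TMM.

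Genes called between the progenitors numbered 7548 with library totals. Between the inguinal stages they numbered 5276 with library totals, 6052 with limma-voom and 5757 with 2 groups alone. Between the perivascular stages they numbered 10914 with limma-voom, 2825 with 2 groups alone, 9893 without the 3 libraries and 3916 to 8000 without 1 library. In the interaction they numbered 8384, 7783 without the 3 libraries and 1666 to 5231 without 1.

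Other mitosis genes higher in the interaction numbered 4 with DESeq2, 8 with limma-voom, 8 without the 3 libraries and 0 to 7 without 1 library, and lower 14 with library totals, 19 with limma-voom, 25 without the 3 libraries and 2 to 17 without 1. The calls over all genes moved as well. They numbered 3776 with DESeq2 (46.5% of them higher) and 3099 with library totals (23.3%). With limma-voom they numbered 8384 (51%), each of 18855 genes, and without the 3 libraries 7783 of 19396 (49.6%). Between the perivascular stages 29 were higher with 2 groups alone and 31 to 46 without 1 library. There 1 was lower with library totals, 8 with limma-voom, 10 without the 3 libraries, 0 with 2 groups alone and 0 to 7 without 1. Over all genes 6226 were called there with library totals (66.3% of them higher) and 10914 with limma-voom (51.5%). Without the 3 libraries 9893 were called (49.7%), and with 2 groups alone 2825 (56.7%). Between the preadipocytes 1, 8, 8 and 7 were lower with library totals, limma-voom, without the 3 libraries and with 2 groups alone, and 1 to 7 without 1 library. In the same order of settings 8808, 12585, 10926 and 8267 of all genes were called there. Of these calls 66.5%, 51.8%, 49.5% and 49.7% were higher. Between the inguinal stages 5, 1 and 4 were lower with limma-voom, without the 3 libraries and with 2 groups alone (0 to 1 without 1 library), and between the progenitors 1 with DESeq2, limma-voom or 2 groups alone (0 to 1).

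Interactions close to 0 changed sign. That of Aurka was 0.0704 and that of Plk1 0.0595 with limma-voom, Ccna2 had -0.18 with library totals, -0.0268 without a filter and -0.0055 with a minimum count of 50, and Cenpk had 0.0637 with limma-voom and 0.41 without the 3 libraries. Without 1 library they ran from -0.20 to 0.0733 for Aurka, -0.12 to 0.50 for Birc5, -0.25 to 0.60 for Ccna2, -0.33 to 0.0104 for Ccnb2, -0.38 to 0.15 for Cenpa, -0.32 to 0.22 for Cenpk, -0.48 to 0.0095 for Plk1 and -0.0544 to 0.55 for Pttg1. The cause of these changes was not tested.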
